A study of Mus musculus with 5 samples.

Results

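The genes described here are 8 genes of cholesterol synthesis and of its control, Hmgcs1, Idi1, Fdft1, Sqle, Lss, Cyp51, Insig1 and Srebf2. They were found by their gene symbol, and 8 of 8 were present among the 55385 genes with deposited counts. RNA sequencing was performed on total RNA of hippocampi of 3-month-old male C57/bl6 mice, which were either left untreated or received kainic acid (20 mg/kg) into the peritoneum. Kainic acid is an agonist of glutamate receptors that provokes seizures, and the treated mice were killed 1, 4 or 8 h after seizures began. There were 5 libraries in 4 conditions, 1 each for the untreated control, 1 h and 8 h and 2 for 4 h, which are called replicate 1 and replicate 2. The control was untreated, so injection and handling cannot be told apart from kainic acid, and no library of vehicle-injected mice was analysed here.

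Cholesterol is built from acetyl-CoA through mevalonate, which is turned into isoprenoid units that are joined to squalene, closed to lanosterol and trimmed to cholesterol. The enzymes are controlled together by the transcription factor SREBP2, encoded by Srebf2, which is held in the endoplasmic reticulum by Insig proteins when sterols are plentiful and is released to the nucleus when they run low. The brain makes its own cholesterol because lipoproteins of the blood do not cross the blood-brain barrier, and both neurons and glia express the pathway.

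Sequencing depth was similar, as the sum of gene counts was 19100374 for the untreated library, 17744508 for 1 h, 18250114 for replicate 1 and 19109204 for replicate 2 of 4 h, and 16612225 for 8 h. Reads that lay on no gene made up 24.7% of all deposited reads in the control, 29.0% at 1 h, 33.1% and 25.3% in replicates 1 and 2 at 4 h, and 30.9% at 8 h. Levels are given as CPM, the count of a gene relative to the TMM-scaled library total, and intervals are exact 95% intervals that cover counting error only. Nothing in the sources used here states that each library came from a separate animal, so p-values measure only the spread between these samples, which may be technical.

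The promoters of the members were examined because SREBP2 is known to bind sterol regulatory elements close to the start of its target genes. Of the 8 members, 6 were found in the promoter table of RefSeq (GRCm38.p6). The core of the sterol regulatory element was searched as TCACCCCA on both strands, and it was present in the windows of Hmgcs1 and Srebf2, that is 2 of 6, against 1.56% of all 32851 promoter windows of the same length. With the fifth base left free (TCACNCCA, which includes the first motif), the count was again 2 of 6, against 4.36% of all windows. The CCAAT box, searched as CCAAT on both strands, was present in 6 of 6 windows and in 37.4% of all windows. The GC box GGGCGG was present in 6 of 6 and in 35.7% of all, and the E-box CACGTG was found in 1 of 6, that of Insig1, and in 7.15% of all. The windows also hold bases after the start in RefSeq. For Idi1 every CCAAT and GC box, and for Cyp51 the CCAAT box, lay before the start in RefSeq but after the start in the GENCODE annotation. The bases before the more upstream of the starts in RefSeq and GENCODE, which is that of RefSeq for Hmgcs1 and of GENCODE for Srebf2 and Insig1, are shown for the members with the sterol element core and for Insig1, with capitals marking the sterol element core and the CCAAT box, which reads ATTGG where it lies on the other strand. These matches describe the letters of the sequence and do not show that a factor binds there.
Hmgcs1 (chr13:119690101-119690350, plus strand): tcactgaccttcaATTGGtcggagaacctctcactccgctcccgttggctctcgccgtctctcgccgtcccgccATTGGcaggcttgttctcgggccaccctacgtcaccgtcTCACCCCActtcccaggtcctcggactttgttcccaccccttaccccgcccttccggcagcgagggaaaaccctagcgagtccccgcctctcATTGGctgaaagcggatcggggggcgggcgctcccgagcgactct
Srebf2 (chr15:82147019-82147180, plus strand): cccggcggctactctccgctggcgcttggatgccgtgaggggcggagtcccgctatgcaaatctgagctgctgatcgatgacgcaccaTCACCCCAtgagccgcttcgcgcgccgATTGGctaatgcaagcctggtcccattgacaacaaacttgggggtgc
Insig1 (chr5:28071162-28071362, plus strand): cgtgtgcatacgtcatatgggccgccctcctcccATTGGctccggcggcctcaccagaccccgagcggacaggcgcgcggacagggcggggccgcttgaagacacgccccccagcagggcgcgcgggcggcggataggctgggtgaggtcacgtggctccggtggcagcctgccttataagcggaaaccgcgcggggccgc

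The identity of the tissue and of the treatment was checked first. Immediate early genes, which neurons transcribe within minutes of strong activity, were at least 1.5 times higher at 1 h than in the control for 7 of 7 genes. Fos, a subunit of the AP-1 factor, stood at 10.8 CPM in the control, 999 at 1 h, 519 in replicate 1 and 70.4 in replicate 2 at 4 h, and 17.2 at 8 h. Npas4, a neuronal activity-dependent transcription factor, stood at 3.92 CPM in the control, 694 at 1 h, 130 in replicate 1 and 4.92 in replicate 2 at 4 h, and 5.13 at 8 h. The pair at 4 h thus differed widely, and replicate 1 was above replicate 2 for 7 of 7 of these genes. edgeR's test called 0 of them at 1 h, DESeq2 called 1, Fosb, limma-voom called 0, and p before adjustment was under 0.05 in edgeR's test for 7 of 7. With library size alone edgeR's test called 5 of 7 as higher at 1 h, against 0.288% of all genes, and without a filter on low counts it called 7 of 7, against 0.813%. The neuron marker Snap25 stood at 1437 CPM in the control and between 1291 and 1652 in the kainic acid libraries. Other neuron markers differed more at 4 h, where replicates 1 and 2 were at 2.01 and 1.48 times the control for Gad1, 1.47 and 1.52 times for Gad2, and 0.688 and 0.692 times for Rbfox3. Gad1 was at 1.07 times the control at 8 h, so that it was highest at 4 h as most members were. The summed CPM lay between 3436 and 4122 for 6 neuron markers, between 217 and 276 for 4 dentate granule cell markers and between 146 and 217 for 2 markers of CA1 pyramidal cells. Single dentate markers differed in opposite directions at 4 h, where replicates 1 and 2 were at 2.86 and 1.99 times the control for Prox1, 0.376 and 0.398 times for C1ql2, and 0.0600 and 0.188 times for Dsp. DESeq2 called Prox1 and C1ql2 in this comparison, and edgeR's test and limma-voom called 0 of the 4, with p before adjustment under 0.05 for 3 in edgeR's test, which called Prox1, C1ql2 and Dsp with library size alone or without a filter on low counts. The sum lay between 168 and 198 for 6 microglia markers and between 93.6 and 119 for 4 endothelial markers. These sums, too, combine unlike markers, as at 4 h replicates 1 and 2 were at 0.436 and 0.558 times the control for P2ry12 but 1.40 and 1.26 times for C1qa, both of microglia, and at 0.247 and 0.617 times for Slco1a4 but 1.75 and 1.16 times for Pecam1, both of endothelium. Of the CA1 markers, Fibcd1 was at 0.523 and 0.698 times the control in these libraries. For the neuron, CA1, microglia and endothelial lists at 4 h, p before adjustment was under 0.05 in edgeR's test for 3, 1, 1 and 0 markers. For these lists edgeR's test, DESeq2 and limma-voom called 0, while edgeR's test without a filter on low counts called 1 of each. Over all genes at 4 h, edgeR's test called 3.97% without a filter and 1.2% with library size alone. No marker of any list was at 0 counts in a library.

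Markers of other cells moved between the libraries. The summed CPM of 5 choroid plexus markers was 170 in the control, 79.4 at 1 h, 4.40 and 199 in replicates 1 and 2 at 4 h, and 134 at 8 h, with Clic6 the most abundant and Slc4a5 at only 2 counts in replicate 1 at 4 h. Replicate 1 at 4 h therefore held almost no choroid plexus RNA. In replicate 2 the markers were on both sides of the control, with Clic6 at 1.44, Slc4a5 at 1.21 and Folr1 at 1.08 times its level and Kcnj13 at 0.896 and Sostdc1 at 0.847 times. At 1 h 5 of 5 were at least 1.5 times lower than the control, against 9.2% of all genes. edgeR's test, DESeq2 and limma-voom called 0 of the 5 at 1, 4 or 8 h. Without a filter on low counts edgeR's test called Folr1 and Clic6 as lower at 1 h, against 0.058% of all genes. At 4 h it called Folr1, Kcnj13 and Sostdc1 as lower, against 0.852%. The 6 oligodendrocyte markers summed to 1970 CPM in the control, 2528 at 1 h, 2460 and 3175 in replicates 1 and 2 at 4 h, and 1996 at 8 h. At 8 h, 5 of these 6 were below the control, among them Mog at 0.682 times its level, while Mobp was at 1.41 times. The median log2 fold change of this list was 0.31 at 1 h, 0.49 at 4 h, -0.24 at 8 h and -0.62 between 8 h and 4 h, each with the sign that the median of the 8 members had (0.31, 0.82, -0.35 and -0.97) in the same libraries, and 3 of the 4 comparisons share the control. Within the pair at 4 h, however, the order of the 2 lists was opposite. The 8 members summed to 1384 CPM in replicate 1 and 1029 in replicate 2, against 2460 and 3175 for the oligodendrocyte markers. edgeR's test called 0 of the 6 oligodendrocyte markers between 8 h and 4 h, with p before adjustment under 0.05 for 5. DESeq2 and limma-voom called 0, while edgeR's test without a filter on low counts called 3, against 2.92% of all genes. The 6 astrocyte markers, of which Aldoc was the most abundant, summed to 1692 CPM in the control, 1784 at 1 h, 2294 and 2169 in replicates 1 and 2 at 4 h, and 2026 at 8 h. Most of the difference in this sum lay in Gfap, which stood at 221 CPM in the control, 596 and 510 in replicates 1 and 2 at 4 h, and 587 at 8 h. Aldoc stayed between 0.979 and 1.11 times the control, and Gja1 was at 0.507 times the control at 8 h. DESeq2 called Gfap at 4 h and at 8 h, while edgeR's test and limma-voom called 0 of the 6. With library size alone edgeR's test called Gfap at both times (1.2% and 0.111% of all genes), and without a filter it also called Gja1 at 8 h (0.852%). Oligodendrocytes and astrocytes are known as makers of cholesterol in the brain. In such bulk tissue fewer cells of a type and less RNA per cell cannot be told apart, and the part of these markers and of the reads on no gene in the results was not tested.

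**Figure D1:**
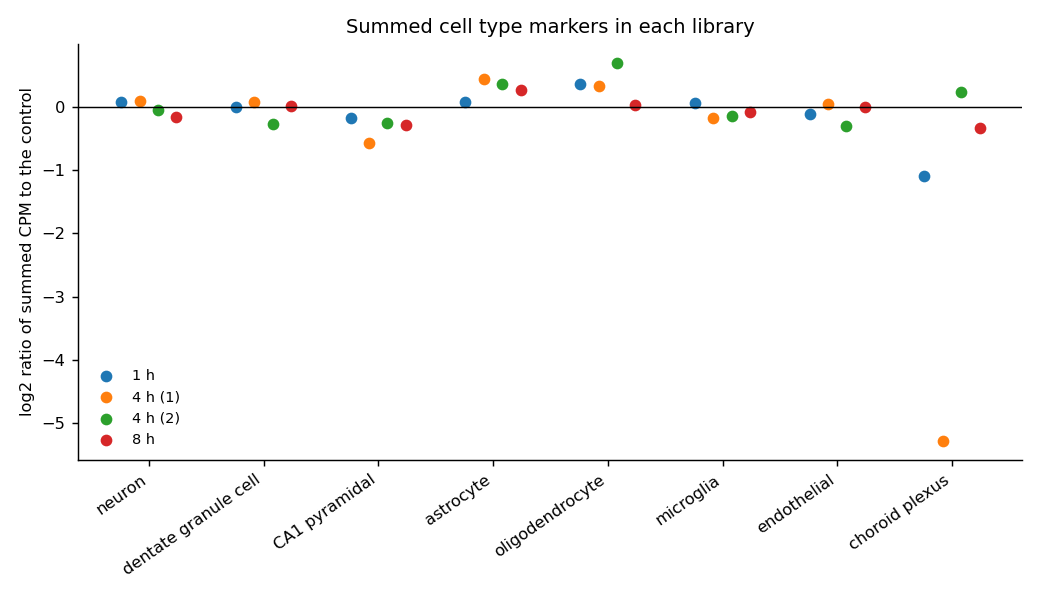
Log2 ratio of the summed CPM of each marker list to the control (vertical axis) for 8 cell types (horizontal axis), with 1 point for each kainic acid library. The choroid plexus sum of replicate 1 at 4 h was 4.40 CPM against 170 in the control, and the other sums lay closer to the control.

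The mevalonate part of the pathway was represented by Hmgcs1 and Idi1. Hmgcs1, the cytosolic HMG-CoA synthase that makes the precursor of mevalonate, lies at chr13:119690379-119708260 on the plus strand. Its level was 257 CPM in the control, 323 at 1 h, 613 and 487 in replicates 1 and 2 at 4 h, and 271 at 8 h. Both libraries at 4 h lay above all others, and the 8 h library was back near the control, 1.05 times its level (interval 1.01 to 1.10). Idi1, the isomerase that interconverts the isoprenoid units, lies at chr13:8885501-8892451 on the plus strand. Its level was 13.8 CPM in the control, 25.2 at 1 h, 58.7 and 31.3 in replicates 1 and 2 at 4 h, and 8.61 at 8 h. Of the 8 members, Idi1 had the widest range, with the highest library 6.82 times the lowest. The ratio to the control was 4.27 (interval 3.73 to 4.89) in replicate 1 and 2.27 (interval 1.97 to 2.63) in replicate 2 at 4 h, and 0.626 (interval 0.509 to 0.766) at 8 h.

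The squalene and lanosterol steps were represented by Fdft1, Sqle, Lss and Cyp51. Fdft1, the squalene synthase, stood at 66.7 CPM in the control, 76.0 at 1 h, 106 and 91.9 in replicates 1 and 2 at 4 h, and 54.0 at 8 h. Sqle, the squalene epoxidase, stood at 49.8 CPM in the control, 61.3 at 1 h, 131 and 79.7 in replicates 1 and 2 at 4 h, and 34.1 at 8 h. For both genes the libraries at 4 h were the highest and the library at 8 h was the lowest. Cyp51, which removes a methyl group from lanosterol, stood at 68.7 CPM in the control, 122 at 1 h, 190 and 103 in replicates 1 and 2 at 4 h, and 59.7 at 8 h. The 1 h library thus lay between the pair at 4 h, which differed 1.84 times from each other (interval 1.74 to 1.95). Lss, the lanosterol synthase that closes the ring system, had 48.0 CPM both untreated and 1 h after onset, 47.0 and 41.6 in replicates 1 and 2 at 4 h, and 33.8 at 8 h. Lss was the exception among the 8 members, as neither library at 4 h was above the control, and its library at 8 h was 0.704 times the control (interval 0.634 to 0.780).

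The control of the pathway was represented by Srebf2 and Insig1. Srebf2, which encodes the factor SREBP2, stood at 101 CPM in the control, 112 at 1 h, 141 and 119 in replicates 1 and 2 at 4 h, and 98.0 at 8 h. Its levels spanned a narrow range, the highest library being 1.44 times the lowest, and the library at 8 h did not differ from the control beyond counting error (ratio 0.970, interval 0.908 to 1.03). Insig1, which retains the SREBP complex in the endoplasmic reticulum and is itself a target of SREBP2, stood at 61.0 CPM in the control, 84.9 at 1 h, 97.9 and 76.0 in replicates 1 and 2 at 4 h, and 46.1 at 8 h. As for Cyp51, the 1 h library of Insig1 lay between the pair at 4 h.

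**Figure D2:**
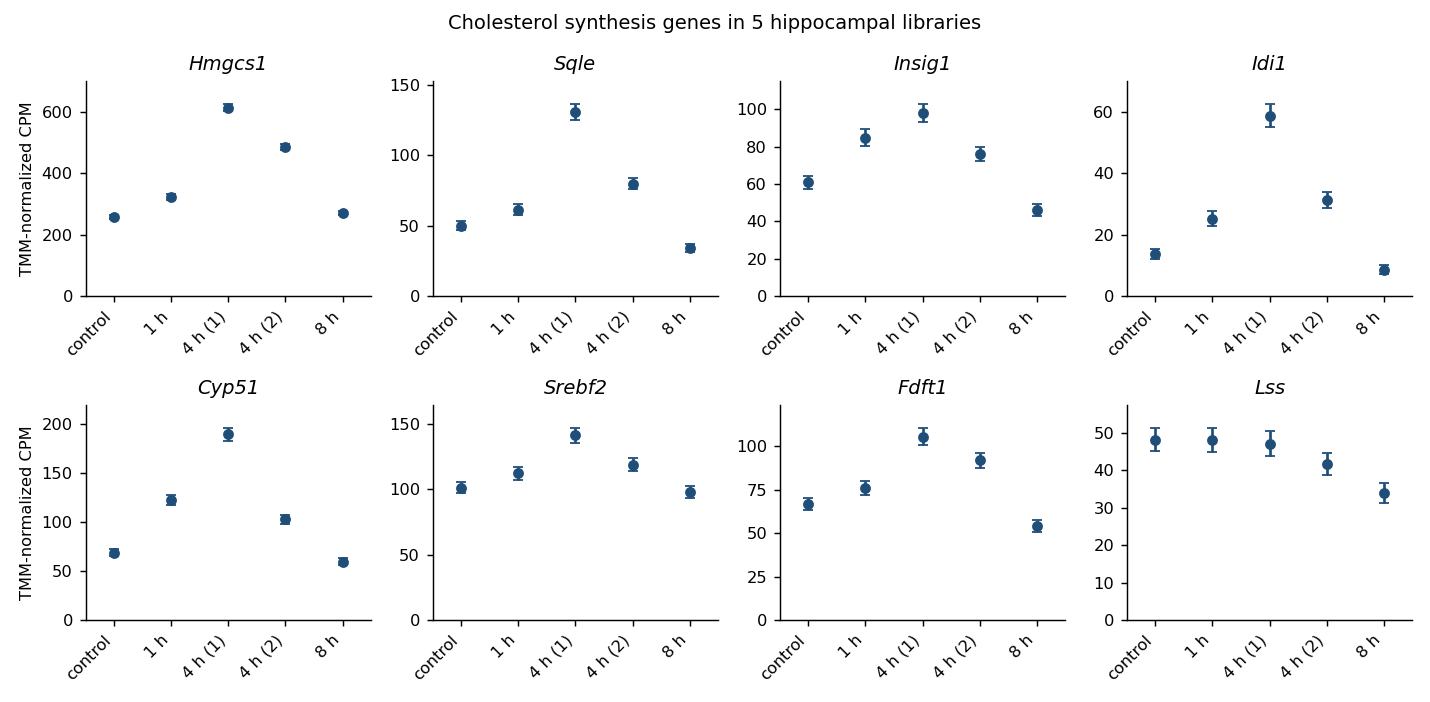
TMM-normalized CPM (vertical axis, from 0) of the 8 genes in each library (horizontal axis; 4 h (1) and 4 h (2) are replicates 1 and 2), with exact Poisson 95% intervals as bars. Idi1 ranged from 8.61 CPM at 8 h to 58.7 in replicate 1 at 4 h, and Lss from 33.8 to 48.0.

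Levels of different genes were compared per kb of exon, counting the exons of all annotated transcripts of a gene together. In the control Hmgcs1 was the highest with 55.9 CPM per kb, followed by Insig1 with 19.7, Fdft1 with 15.8, Cyp51 with 15.6, Srebf2 with 14.1, Sqle with 8.98, Lss with 4.45 and Idi1 with 3.93. Within this single library the counting intervals of Fdft1 and Cyp51 overlapped, and so did those of Lss (4.17 to 4.74) and Idi1 (3.48 to 4.42). At 4 h Idi1 reached 16.8 and 8.93 CPM per kb in replicates 1 and 2, above Lss with 4.36 and 3.85. The order of Lss and Idi1 depends on the annotated exon length, which was 10787 bp for Lss and 3505 bp for Idi1. In CPM, Lss was above Idi1 in the control (48.0 against 13.8) and in replicate 2 at 4 h (41.6 against 31.3). In replicate 1 at 4 h it was below Idi1 (47.0 against 58.7). Cyp51 was above Insig1 in replicate 1 (43.0 against 31.7 CPM per kb) while in replicate 2 their counting intervals overlapped (22.3 to 24.4 for Cyp51 and 23.3 to 25.9 for Insig1).

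Exons of genes on the other strand overlap several members, covering 18.3% of the exon length of Fdft1 (Ctsb), 12.1% of Hmgcs1 (Gm48342), 9.22% of Idi1 (Gm48574), 3.76% of Cyp51 (Akap9) and 3.53% of Lss (4930483K19Rik). The strand setting of the counting is not given in the sources used here, so reads of these stretches cannot be assigned with certainty. For Sqle and Insig1 no overlapping gene was found.

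The comparison with the control asked how the pathway differed at each time point after seizures. A member was counted as higher or lower when every library of the time point was at least 1.5 times above or below the control. At 1 h, 2 of 8 members, Idi1 and Cyp51, were higher, against 10.9% of the 19768 genes tested, and 0 were lower, against 9.2%. At 4 h, 4 of 8 members, Hmgcs1, Sqle, Idi1 and Cyp51, were higher, against 10.1% of all genes, and 0 were lower, against 6.28%. Replicate 2 of Cyp51 lay barely past this threshold, and the count was 3 of 8, without Cyp51, when scaled by library size alone (against 8.35% of all genes) or without a filter on low counts (against 11.6%). At 8 h, 0 of 8 members were higher, against 14.1% of all genes, and 1, Idi1, was lower, against 8.94%. The 3 comparisons share the single control library.

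Taking the 8 members as a list, the median log2 fold change equalled 0.31 for 1 h, 0.82 for 4 h and -0.35 for 8 h. Over all genes tested it was -0.01, 0.01 and 0.01. The median of the members at 4 h was 0.97 with replicate 1 alone and 0.52 with replicate 2 alone. At 4 h the log2 fold change was 1.70 ± 0.43 (SE) for Idi1, 1.10 ± 0.21 for Hmgcs1, 1.09 ± 0.38 for Cyp51, 1.08 ± 0.33 for Sqle, 0.56 ± 0.18 for Fdft1, 0.51 ± 0.22 for Insig1, 0.36 ± 0.19 for Srebf2 and -0.12 ± 0.20 for Lss. The members thus spanned a wide range at 4 h, with Lss near 0 and Idi1 the highest. At 8 h the log2 fold change was -0.67 ± 0.48 for Idi1, -0.54 ± 0.37 for Sqle and -0.51 ± 0.23 for Lss, and it was 0.08 ± 0.23 for Hmgcs1.

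**Figure D3:**
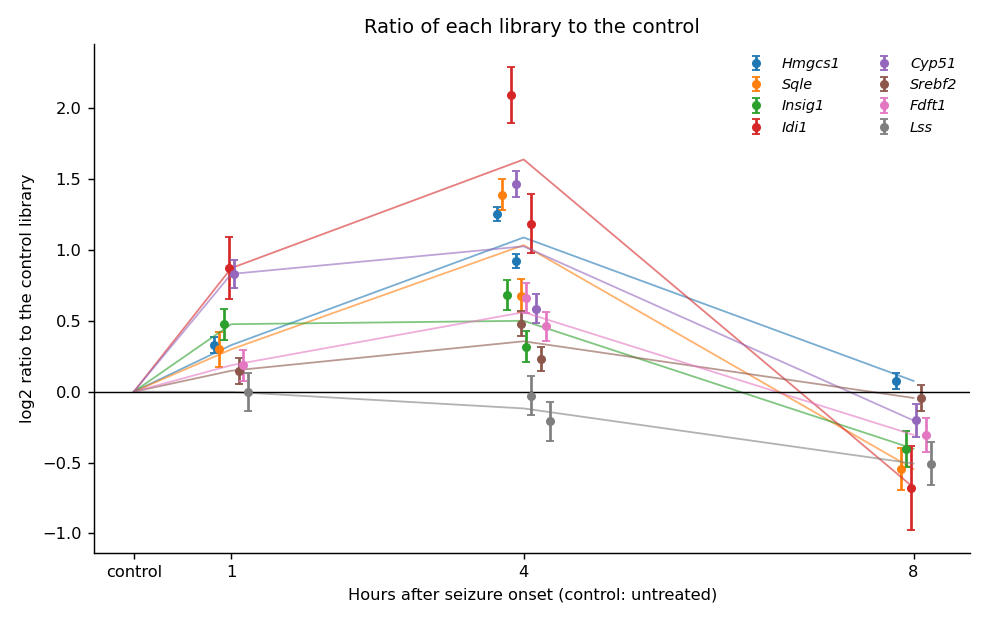
Log2 ratio of each kainic acid library to the control library (vertical axis) against hours after seizure onset (horizontal axis), with exact binomial 95% intervals as bars; points are set slightly apart, and lines pass through the mean of the pair at 4 h. At 4 h, 7 of 8 genes lay above the control in both replicates, and at 8 h 1 of 8 genes, Hmgcs1, lay above it.

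None of these differences passed edgeR's test across all genes with TMM scaling and the filter on low counts. The quasi-likelihood test of edgeR, with Benjamini-Hochberg adjustment and a threshold of 0.05, called 0 of 8 members at each of the 3 time points, against 0% of all genes at 1 h, 0.00506% at 4 h and 0% at 8 h. The 1 gene called at 4 h was ETV3L, named here after its value was seen. Before adjustment, p was under 0.05 for 0, 5 and 0 members, and for 478, 2291 and 892 of all genes. At 4 h the adjusted p of this test was 0.259 for Hmgcs1, 0.325 for Idi1, 0.358 for Sqle and 0.398 for Cyp51. Only the 4 h pair gave the fit a residual degree of freedom, which numbered 1, while conditions with a single library were assumed to vary as this pair did. limma-voom called 0 members at each time point. With library size alone edgeR's test called Hmgcs1 as higher at 4 h, against 0.956% of all genes, and without a filter on low counts it called 4 of 8, Hmgcs1, Sqle, Idi1 and Cyp51, against 3.12%, and with both choices it called 0 members at 1 h and 8 h. DESeq2 called 0, 2 and 0 members, and the 2 at 4 h were Hmgcs1 and Idi1, both higher (adjusted p = 0.0139 and 0.0182 from DESeq2), against 1.61% of the genes with an adjusted p that it called as higher. Over the 8 settings tried, the adjusted p at 4 h ranged from 4.45e-06 to 0.327 for Hmgcs1 and from 9.57e-07 to 0.388 for Idi1. The smallest value of both came from edgeR's test without a filter on low counts.

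The later time points were next compared with the earlier ones, to see when the levels turned. From 1 h to 4 h, 1 of 8 members, Hmgcs1, was at least 1.5 times higher in both replicates, against 8.22% of all genes, and 0 were lower, against 5.2%. Hmgcs1 passed narrowly, at 1.51 times the 1 h level in replicate 2, and without a filter on low counts 0 of 8 were higher, against 10.7% of all genes. The median log2 difference of the members was 0.32, against 0.01 over all genes, and it was 0.55 with replicate 1 alone and 0.18 with replicate 2 alone. In this comparison 4 members were higher when replicate 1 was used alone, against 17.6% of all genes, and 1 when replicate 2 was used alone, against 13.5%. From 4 h to 8 h, 6 of 8 members were at least 1.5 times lower than in both replicates at 4 h, against 6.92% of all genes, and 0 were higher, against 6.97%. The exceptions were Srebf2 and Lss.

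The level at 8 h was 14.7% of replicate 1 and 27.5% of replicate 2 at 4 h for Idi1. For Sqle it was 26.1% and 42.8% of the same libraries, and for Hmgcs1 it was 44.2% and 55.6%. The log2 difference between 8 h and 4 h was -2.37 ± 0.46 (SE) for Idi1, -1.62 ± 0.34 for Sqle, -1.29 ± 0.39 for Cyp51, -1.02 ± 0.21 for Hmgcs1, -0.91 ± 0.22 for Insig1, -0.87 ± 0.19 for Fdft1, -0.41 ± 0.19 for Srebf2 and -0.39 ± 0.20 for Lss. All 8 differences were negative, and their median was -0.97 (-1.13 with replicate 1 alone and -0.78 with replicate 2 alone), against -0.02 over all genes. edgeR's quasi-likelihood test called 0 of 8 members in this comparison, against 0% of all genes, and 0 of 8 between 4 h and 1 h, against 0.00506%. An unadjusted p under 0.05 was found for 6 of 8 members between 8 h and 4 h, against 8.73% of all genes, and for 1 of 8 between 4 h and 1 h, against 7.94%. For 8 h against 4 h the adjusted p of edgeR's test was 0.463 for Idi1, Sqle, Hmgcs1 and Fdft1. DESeq2 called 3 members as lower at 8 h than at 4 h, Idi1, Sqle and Hmgcs1 (adjusted p = 0.000200, 0.00428 and 0.0488 from DESeq2), against 0.72% of all genes with an adjusted p, and 0 members between 4 h and 1 h. Over the 8 settings the adjusted p of 8 h against 4 h ranged from 3.18e-12 to 0.542 for Idi1, from 1.69e-09 to 0.542 for Sqle and from 2.30e-05 to 0.542 for Hmgcs1. The smallest value of each came from edgeR's test without a filter on low counts. There the SE was 0.31, 0.24 and 0.20 for these genes, against 0.46, 0.34 and 0.21 with the filter, from the same libraries. limma-voom called 0 in both comparisons. For 8 h against 4 h edgeR's test with library size alone called Sqle and Idi1 as lower, against 0.339% of all genes, and without a filter on low counts it called 6 of 8, all but Lss and Srebf2, against 2.14%. For 4 h against 1 h it called 0 members with library size alone and Hmgcs1 and Sqle as higher without a filter, against 1.48%.

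The other genes of the pathway were counted in the same way. By this rule 10.1% of all genes were higher and 6.28% were lower at 4 h, and 8.94% were lower at 8 h. Of 6 other mevalonate enzymes, 2 were at least 1.5 times higher than the control in both replicates at 4 h and 0 were lower. These were Pmvk, the phosphomevalonate kinase, with 24.8 CPM in the control, 84.6 and 49.7 in replicates 1 and 2 at 4 h and 27.4 at 8 h, and Mvd, the decarboxylase that follows it, with 13.8, 28.2, 21.9 and 9.81 CPM. Mvk, the mevalonate kinase, was the 1 gene of this list that was lower at 8 h, with 8.04 CPM against 15.8 in the control. The median log2 fold change of the list was 0.25 at 4 h and -0.26 at 8 h.

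Of 8 other enzymes of the sterol branch, 4 were higher at 4 h, against 10.1% of all genes, and 0 were lower, against 6.28%. Msmo1, the sterol methyl oxidase that acts after Cyp51, stood at 70.8 CPM in the control, 105 at 1 h, 229 and 142 in replicates 1 and 2 at 4 h, and 44.7 at 8 h. Sc5d, a sterol desaturase, stood at 83.6 CPM in the control, 207 and 143 in replicates 1 and 2 at 4 h, and 81.4 at 8 h. Hsd17b7, a sterol ketoreductase, stood at 20.4 CPM in the control, 47.8 and 37.9 in replicates 1 and 2 at 4 h, and 16.6 at 8 h. These genes, like 7 of the 8 members, had their highest level in replicate 1 at 4 h. Ebp, a sterol isomerase, was the fourth, with 11.3 CPM in the control, 20.5 and 18.5 in replicates 1 and 2 at 4 h, and 13.0 at 8 h. By the same rule Msmo1 was lower than the control at 8 h. The median log2 fold change of the list was 0.50 at 4 h, -0.34 at 8 h and -0.69 between 8 h and 4 h.

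Not every enzyme was higher at 4 h. Dhcr7, which completes cholesterol in one of its routes, stood at 14.6 CPM in the control and at 14.9 and 14.7 in replicates 1 and 2 at 4 h. Tm7sf2, a sterol reductase, stood at 12.7 CPM in the control and at 9.26 and 9.20 at 4 h. Fdps, which makes farnesyl diphosphate, had between 29 and 53 counts in the libraries, and its level was 0.990 and 1.02 times the control in replicates 1 and 2 at 4 h. edgeR's test called 0 genes of both lists in all 5 comparisons, with p before adjustment under 0.05 for 2 mevalonate and 4 sterol branch enzymes at 4 h and for 4 and 4 between 8 h and 4 h. DESeq2 called Pmvk and Msmo1 at 4 h and Msmo1 between 8 h and 4 h, and limma-voom called 0. Without a filter on low counts edgeR's test called 1 mevalonate and 3 sterol branch enzymes at 4 h, against 3.97% of all genes. In this setting it called 3 and 4 between 8 h and 4 h, against 2.92%, and 0 and 2 between 4 h and 1 h, against 2.21%. With library size alone it called Msmo1 at 4 h and between 8 h and 4 h, against 1.2% and 0.607% of all genes.

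The proteins that process SREBP and the neighbouring lipid pathways were counted next. By the same rule 10.9%, 10.1% and 14.1% of all genes were higher at 1, 4 and 8 h, and 9.2%, 6.28% and 8.94% were lower. Of 5 other genes of the SREBP machinery, Srebf1, Scap, Insig2, Mbtps1 and Mbtps2, 0 were at least 1.5 times higher or lower in every library at any time point, and the median log2 fold change at 4 h was -0.37. Srebf1, which encodes the related factor SREBP1, stood at 60.4 CPM in the control, 34.0 and 48.8 in replicates 1 and 2 at 4 h, and 63.3 at 8 h. Scap, the escort protein of SREBP, stood at 90.4 CPM in the control, 65.7 and 69.2 at 4 h, and 76.6 at 8 h. Of 10 genes of fatty acid synthesis, 0 were higher or lower than the control at 1, 4 or 8 h by the same rule. Their median log2 fold change was 0.05 at 4 h and -0.28 at 8 h. Between 8 h and 4 h it was -0.33, with 0 of 10 genes positive, and 1, Scd1, was at least 1.5 times lower. edgeR's test called 0 of the 10 there and 1, Scd1, without a filter on low counts, against 2.92% of all genes. For the SREBP machinery the median between 8 h and 4 h was 0.21, with 5 of 5 genes positive. Of 11 genes of sterol efflux, sterol oxidation and the LXR factors, 1 was higher at each of 1, 4 and 8 h. This was Ch25h, a cholesterol hydroxylase with only 8 counts in the control, 47 and 13 in replicates 1 and 2 at 4 h, and 17 at 8 h. edgeR's test, DESeq2 and limma-voom called 0 genes of these 3 lists at 4 h, and edgeR's test gave an unadjusted p under 0.05 for 1, 0 and 1 genes, of which Ch25h was not one.

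**Figure D4:**
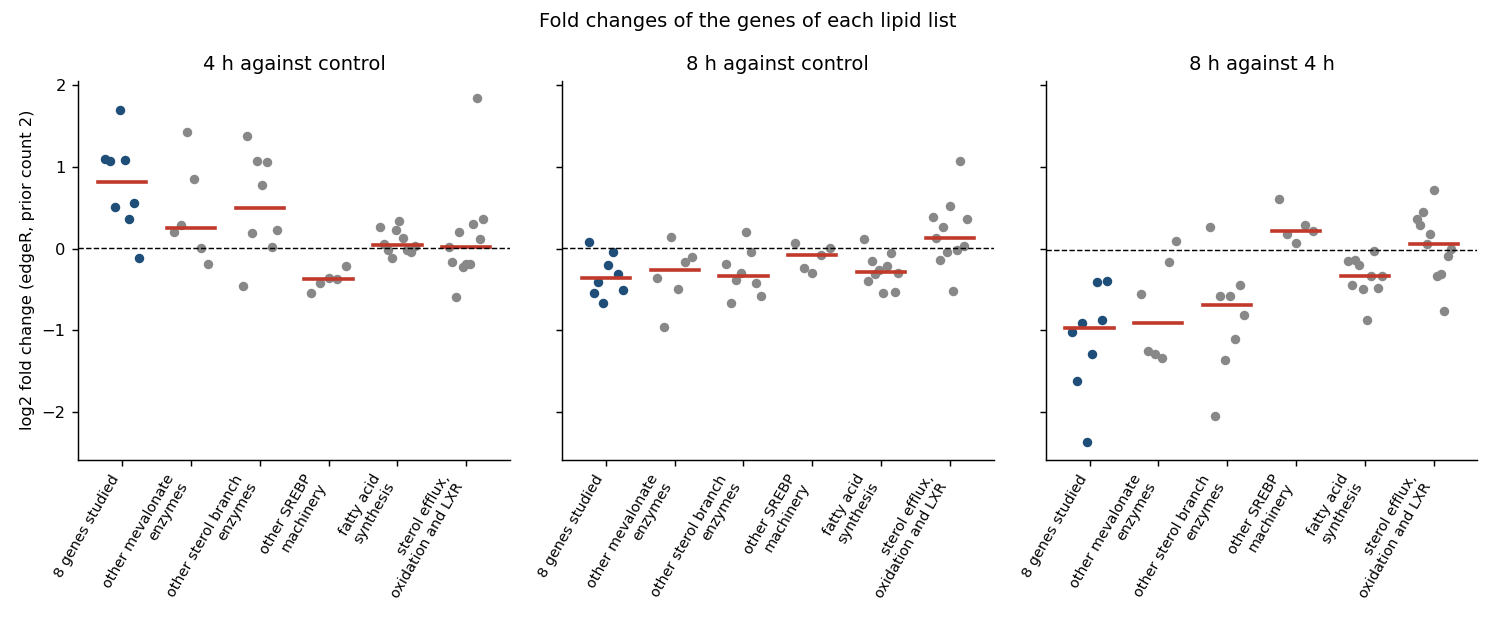
Log2 fold change from edgeR (vertical axis) of each gene of 6 lists (horizontal axis) in 3 comparisons; blue points are the 8 genes, grey points the genes of the other lists, red bars list medians and the dashed line the median over all genes. At 4 h against control the medians were 0.82 for the 8 genes, 0.50 for the other sterol branch enzymes and 0.05 for fatty acid synthesis.

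The genes outside the 8 members with the most similar course were sought among 9968 genes with a mean of at least 10 CPM. These 9968 genes included other enzymes of the pathway. The measure was the root mean square difference, on the log2 scale, from the median ratio of the 8 members to the control in the 4 kainic acid libraries. The closest were Fgfr1op, with a difference of 0.07, Ing2, Zbtb16 and Tgfb2, each with 0.10, and Cry2, with 0.12. The members themselves lay between 0.17 (Fdft1) and 0.73 (Idi1) from their own median, so that the likeness of these genes is to the median course and not to each member. Among the same 9968 genes the other enzymes of the pathway ranked from 57 (Mvd) to 8263 (Tm7sf2).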

How the data were processed

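Per the submitters' processing notes, the authors aligned the reads with STAR 2.5.1b to GRCm38.p4 and counted them per gene with HTSeq. The deposited values are raw counts of reads per gene, without normalization. Reads on no gene, ambiguous reads (1.26% to 1.52%) and reads aligned more than once (9.67% to 11.6%) were kept out of library sizes and tests. Gene positions and exons were taken from GENCODE M21, in which 55144 of 55385 identifiers were found, and the version of the identifier of Fdft1 differed. The members and lists were chosen with earlier results of these data known.

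The analysis used edgeR 4.0.16 under R 4.3.3. The 19768 genes that passed filterByExpr, which included all 8 members, were scaled with TMM and fitted by a quasi-likelihood model with 4 groups over all 5 libraries, with Benjamini-Hochberg adjustment over all genes tested and a threshold of 0.05. The common dispersion was 0.0565. A prior count of 2 was set for fold changes, and each SE is the coefficient without prior count divided by the root of F. DESeq2 1.42.0, limma-voom (limma 3.58.1), other scalings, filters, prior counts and fold thresholds, and leaving out each library at 4 h were the alternatives. The script was tested on simulated data. Intervals were computed with SciPy 1.17.1 as exact Poisson intervals for levels and exact binomial (Clopper-Pearson) intervals for ratios. Genes outside the members were named where they were past 1.5-fold at 4 h or 8 h in every library, up to 4 a list, or by likeness. Srebf1, Scap, Dhcr7, Tm7sf2, Fdps, Scd1 and single cell type markers were named after their values were seen, and Npas4 was named outside this rule. The values of 2 genes of the lists are not reported here.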

Additional observations from a re-analysis of the deposited data

Results flagged for a closer look

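For 5 genes the libraries of one time point lay above the control and those of another below it, in each case beyond counting error. At 1 h and in both replicates at 4 h, Idi1, Sqle, Cyp51, Insig1 and Fdft1 were above the control, and at 8 h they were below it. The log2 difference between 8 h and 4 h was -2.37 for Idi1, -1.62 for Sqle, -1.29 for Cyp51, -0.91 for Insig1 and -0.87 for Fdft1. None of these passed edgeR's quasi-likelihood test after adjustment with TMM scaling and the filter on low counts. Without that filter the same test called all 5 as lower, against 2.14% of all genes. With library size alone it called Idi1 and Sqle, against 0.339%, and DESeq2 called the same 2 of these 5, against 0.72%. The log2 fold change at 8 h minus that at 1 h was -1.54 for Idi1, -1.03 for Cyp51, -0.88 for Insig1, -0.84 for Sqle and -0.49 for Fdft1, and this difference was not tested. Each of the 1 h and 8 h libraries is single, and all of these ratios share the single control.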

How the results depend on the processing

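No paired analysis was possible because only the 4 h condition has more than 1 library. The median of the 8 genes kept its direction in all 5 comparisons under all 9 alternatives. With TMM scaling and the filter on low counts edgeR called 0 of 8 genes in each comparison. For 4 h against control DESeq2 called 2 (1.7% of all genes with an adjusted p), library size alone 1 (1.2%) and no filter 4 (3.97%), for 8 h against 4 h they called 3 (0.92%), 2 (0.607%) and 6 (2.92%), and for 4 h against 1 h no filter called 2 (2.21%). These make 5, 3 and 12 of 40 fold changes. Library size alone shifted the median of all genes to -0.11 at 4 h against control and to 0.12 at 8 h against 4 h.

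In the order 1 h, 4 h and 8 h against control, 4 h against 1 h and 8 h against 4 h, edgeR called 0, 1, 0, 1 and 0 genes. The counts were 57, 237, 22, 67 and 120 with library size alone, 285, 1300, 279, 725 and 957 without a filter, and 56, 238, 33, 109 and 129 with DESeq2. They were 1, 0, 0, 0 and 0 with at least 10 counts in every library, and 0 in each with RLE factors or limma-voom, so the 1 gene called at 4 h against control and at 4 h against 1 h was lost. The cause was not tested.

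Counts of members past a fold are given here with the share of all genes past it under the same choice. With a ratio of 5 to 4 in place of 1.5, 4 members were higher at 1 h (18% of all genes), 4 were lower at 8 h (19.1%) and 2 were higher at 4 h against 1 h (15%). With 2-fold, 0 were higher at 1 h (5.41%), 1 was higher at 4 h (4.96%), 0 were lower at 8 h (3.37%), 0 were higher at 4 h against 1 h (3.71%) and 2 were lower at 8 h against 4 h (3.08%). For 4 h against 1 h, 0 were higher without a filter (10.7%), 1 without replicate 1 (13.5%) and 4 without replicate 2 (17.6%). For 4 h against control, 4 were higher without replicate 1 (13.8%) and 6 without replicate 2 (21.1%), with a median log2 fold change of 0.52 and 0.97, and the median of 4 h against 1 h was 0.18 and 0.55. Leaving out a library at 4 h leaves no residual degree of freedom and gives values with no test. limma-voom and the prior count do not enter the counts past a fold. Single libraries limit every comparison except for the spread seen within the pair at 4 h.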
